A study of Mus musculus with 165 samples.

Results

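Interferon regulatory factors (IRFs) are transcription factors named for their control of interferon genes and of the genes that interferons switch on. The 8 members described here, *Irf1*, *Irf2*, *Irf3*, *Irf4*, *Irf5*, *Irf7*, *Irf8* and *Irf9*, were chosen by symbol from a table of 36255 genes. The rule used no measured value, but earlier results of these data were known. All 8 reached a normalized count of 5 somewhere among the libraries fitted and so were tested, but 3 of them, *Irf4*, *Irf5* and *Irf8*, lay near the detection floor.

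The family shares a DNA-binding domain that recognizes GAAA repeats, the interferon-stimulated response element. IRF3 and IRF7 are activated downstream of receptors for foreign nucleic acid and induce type I interferons, and IRF9 is the DNA-binding part of the complex that answers type I interferon. IRF1 is an activator induced by interferon gamma, and IRF2 occupies the same sites and mostly opposes it. IRF4 and IRF8 bind DNA weakly alone and are recruited by partners such as PU.1. IRF8 is required for monocytes and dendritic cells and restrains the production of granulocytes, whereas IRF5 drives inflammatory genes in macrophages.

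The samples were PUER cells, an IL3-dependent mouse myeloid progenitor line without a working *Spi1*, the gene of PU.1. In its place the line, and therefore every group, carries a PU.1 made dependent on 4-hydroxy-tamoxifen (OHT) by a piece of the estrogen receptor. All groups come from this 1 line. The groups were undifferentiated cells in IL3 (3 libraries), cells moved from IL3 into GCSF for 48h and not yet given OHT (GCSF 0h, 3 libraries), and 2 courses of 27 time points, the first at 1h and the last at 168h, one in GCSF (78 libraries, 100 nM OHT) and one in IL3 (81 libraries, 200 nM OHT). The OHT dose differed with the cytokine, and the 2 cannot be told apart. Part of the medium was replaced and OHT was added again at 40h, 88h and 136h, and cells were detached with trypsin after 24h. These steps fall at set times and cannot be told apart from time. There were 56 groups in all, 53 of them with 3 libraries, and 3 time points in GCSF had 2 (96h, 112h, 152h). The study's methods call the replicates biological, the labels do not tie a library to a culture, and each time point had a plate of its own. The p-values therefore measure the spread between these libraries, and plate and time point cannot be told apart.

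The libraries held 14600246 to 33147945 reads on genes. *Spi1* was read in every library, between 4482 and 13387 normalized counts, in cells without the intact gene, so this count holds the transgene. Of the markers that were summed, the neutrophil genes were abundant in undifferentiated cells (260412 to 267007 over 8 genes). They summed to 334169 to 371471 at GCSF 0h, with *Ltf* under a mean of 5. Their sums were 701002 to 747554 at GCSF-OHT 168h and 232789 to 265374 at IL3-OHT 168h. Lymphocyte markers summed to at most 18.3 in the 4 groups looked at, dendritic cell markers to at most 29.7 and erythroid markers to at most 51.1. The 7 macrophage or monocyte markers summed to 21125 to 23957 in undifferentiated cells, 20433 to 23767 at GCSF 0h, 21964 to 22571 at GCSF-OHT 168h and 23689 to 26742 at IL3-OHT 168h. All 7 had a mean of at least 5 in undifferentiated cells and at GCSF-OHT 168h, but *Csf1r*, the receptor of a macrophage growth factor, was under 5 at GCSF 0h and IL3-OHT 168h, and *Mmp12* at GCSF 0h. The 4 progenitor markers summed to 12811 to 14108 in undifferentiated cells, 14757 to 14947 at GCSF 0h, 7388 to 7527 at GCSF-OHT 168h and 5284 to 5512 at IL3-OHT 168h, with *Cd34* under a mean of 5 in all 4 groups. IL3-OHT 96h and 144h were excluded by the study and were left out of the tests here, except where they are compared with their neighbours.

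The promoters of the 3 members whose windows hold a motif of interferon, STAT or ETS factors are shown first. The windows run from 250 bases before to 50 bases after an annotated start (RefSeq, GRCm38.p6), written 5′ to 3′ along the gene, and capitals mark motif matches.

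Irf1 (chr11:53769764-53770063, + strand): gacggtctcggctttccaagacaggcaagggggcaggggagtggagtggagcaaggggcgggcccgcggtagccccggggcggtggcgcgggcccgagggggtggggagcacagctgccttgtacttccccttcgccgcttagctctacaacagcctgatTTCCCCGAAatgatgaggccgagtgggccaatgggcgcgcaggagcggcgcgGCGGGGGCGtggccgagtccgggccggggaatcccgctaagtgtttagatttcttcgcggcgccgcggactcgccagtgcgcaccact

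Irf2 (chr8:46739495-46739794, + strand): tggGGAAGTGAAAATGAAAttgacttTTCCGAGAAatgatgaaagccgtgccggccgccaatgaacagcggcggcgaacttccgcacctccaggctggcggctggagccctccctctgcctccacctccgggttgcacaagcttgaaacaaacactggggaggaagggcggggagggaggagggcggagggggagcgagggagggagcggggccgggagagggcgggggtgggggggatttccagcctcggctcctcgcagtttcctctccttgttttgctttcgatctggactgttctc

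Irf8 (chr8:120736108-120736407, + strand): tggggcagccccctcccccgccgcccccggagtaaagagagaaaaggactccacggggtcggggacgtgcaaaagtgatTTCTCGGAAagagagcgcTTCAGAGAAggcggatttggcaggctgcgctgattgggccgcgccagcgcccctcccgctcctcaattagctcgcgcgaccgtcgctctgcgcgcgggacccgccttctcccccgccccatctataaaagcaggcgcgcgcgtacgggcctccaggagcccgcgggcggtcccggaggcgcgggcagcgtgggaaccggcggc

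In the *Irf1* window the capitals mark a STAT site of the type bound after interferon gamma (TTCNNNGAA), whose first base lies 90 bases before the start, and an EGR site (GCGNGGGCG) 38 bases before it. In the *Irf2* window they mark a composite of ETS and IRF sites (GGAA and GAAA with 2 bases between), which shares its last 4 bases with an interferon response element (a pair of GAAA with 2 bases between), and further on a STAT site. In the *Irf8* window they mark 2 STAT sites, both before the start. Both strands were searched. The interferon response element was found in 3.44% of 32851 promoters of the same length, the STAT site in 8.3%, the composite in 2.72%, the EGR site in 5.55% and a PU.1 site (GAGGAAGT) in 3.2%. Over the 11 windows of the 8 members, the response element and the composite were found in 1 each, the STAT site in 3, the EGR site in 2 (*Irf1* and *Irf5*) and the PU.1 site in 0. The windows of *Irf3*, *Irf4*, *Irf7* and *Irf9* held none of the 5 motifs. A match describes the letters of the window and is not a measured site.

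Levels differed widely among the members. Per kilobase of annotated exon (GENCODE M21, GRCm38), the mean normalized count over all libraries was highest for *Irf3* (303), followed by *Irf1* (180.6), *Irf2* (91.1), *Irf9* (77.3) and *Irf7* (32.2). *Irf8* (1.49), *Irf5* (0.882) and *Irf4* (0.357) stood far below them. The floor was set at 3 reads, worth 1.96 to 5.51 normalized counts depending on the library, and it covers counting error only. *Irf4* had more than 3 reads in 18 libraries of the whole series and any read at all in 62. *Irf5* had more than 3 reads in 47 libraries and never more than 15. *Irf8* had a median of 8 reads and at most 3 in 22 libraries, 21 of them in GCSF and 1 undifferentiated. The other 5 members never fell to 3 reads, the lowest count being 19, of *Irf7*.

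**Figure D1:**
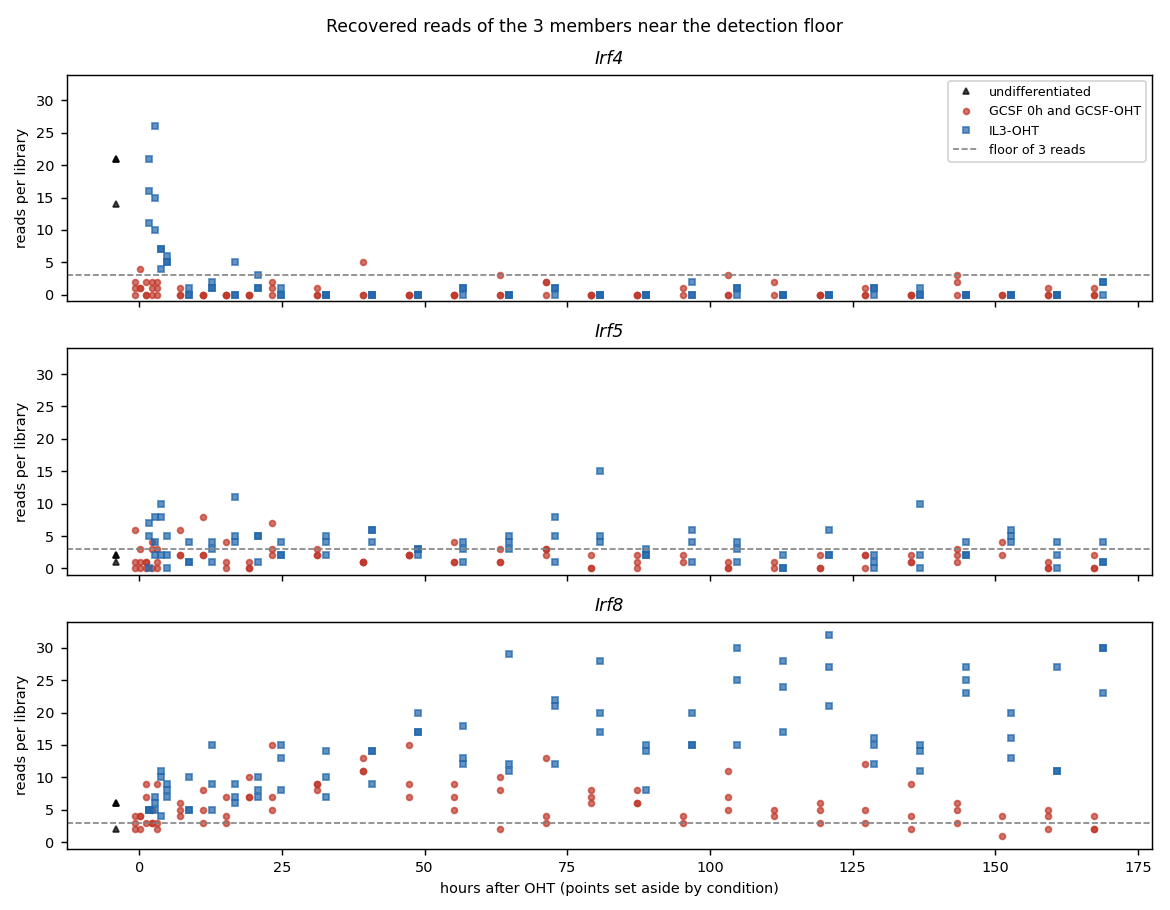
Reads per library (y axis) of the 3 members near the detection floor against hours after OHT (x axis), with 1 point per library and the floor of 3 reads dashed. *Irf4* lies above the floor in undifferentiated cells and in IL3-OHT up to 4h. Elsewhere it does so only in single libraries, with at most 5 reads. *Irf5* straddles the floor in IL3, and *Irf8* reaches 32 reads in IL3 and at most 15 in GCSF.

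*Irf1* (ENSMUSG00000018899, chromosome 11 from 53770014 to 53778374) was the member called between the cytokines at every shared time point. Its normalized counts were 279, 285 and 269 in undifferentiated cells and 883, 951 and 914 at GCSF 0h. The 2 groups do not overlap, and every GCSF library lay above every undifferentiated one. The rise with GCSF pre-treatment was 1.72 on the log2 scale (standard error 0.08, limma adjusted p = 4.67e-42), a fold of 3.29. A gene was called where its adjusted p was below 0.05 and its log2 fold change exceeded 0.58 in size. By this rule GCSF pre-treatment called 33.7% of all genes and 3 of the 8 members, *Irf1* and *Irf3* higher and *Irf4* lower.

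After OHT, *Irf1* first dipped in both cytokines. At 1h it was 211.9, 154.6 and 194 in IL3 and 644, 595 and 589 in GCSF. All of these libraries lay below those of their own starting group. The fall from the start was 0.58 (standard error 0.08, adjusted p = 4.86e-10) in IL3 and 0.59 (standard error 0.08, adjusted p = 1.6e-10) in GCSF. Between the start and 1h, 4.42% of all genes were called in IL3 and 6.05% in GCSF. Taking the 8 members over the 25 consecutive steps in IL3 and the 27 in GCSF, 10 pairs of member and step were called in IL3 and 3 in GCSF, where 3.65% and 1.81% of the pairs over all genes were called. In IL3 *Irf1* then rose to a mean of 593 ± 20.7 (SD, n = 3) at 112h and was called higher than in undifferentiated cells at 19 of 25 time points, from 16h onwards, where 11% of all gene and time point pairs were called higher and 15.7% lower (26.7% in all). In GCSF no time point was called higher than GCSF 0h, although the mean reached 1325 ± 39.7 (SD, n = 3) at 160h.

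At 168h *Irf1* stood at 518, 514 and 509 in IL3 and at 1128, 1065 and 1141 in GCSF. Every GCSF library exceeded every IL3 library at 25 of 25 shared time points, and all 25 differences were called, from 0.75 at 40h to 1.71 at 1h, where 9.97% of all gene and time point pairs were called higher and 12.7% lower (22.7% in all). These shares are of calls, and how many of all genes had libraries so separated was not counted. Over the shared time points the difference was 1.15 (standard error 0.02, adjusted p = 1.12e-96). The 2 courses share no libraries after the start, but the difference was already present before OHT, and relative to its own start *Irf1* moved less in GCSF than in IL3 late in the course (interaction -0.53, standard error 0.08, adjusted p = 5.54e-09), under the fold threshold.

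*Irf2* (ENSMUSG00000031627, chromosome 8 from 46739732 to 46847458), the opponent of IRF1 at shared sites, was higher late in both courses and differed little between the cytokines. It measured 527, 525 and 515 in undifferentiated cells and 508, 552 and 569 at GCSF 0h, so that the groups overlap (0.05, standard error 0.07, adjusted p = 0.511). At 168h the libraries read 802, 738 and 761 in IL3 and 792, 839.8 and 826 in GCSF, all above both starting groups. The late window, 80h to 168h, lay 0.59 above GCSF 0h (standard error 0.05, adjusted p = 2.36e-21), a call that upper-quartile scaling ended at 0.49. In IL3 the late window lay 0.53 above the start (standard error 0.05, adjusted p = 2.52e-18), just short of the fold threshold, and only 128h and 136h were called singly. The highest mean of *Irf2* was 982 ± 61.7 (SD, n = 3) at IL3-OHT 136h. No shared time point was called between the cytokines, with differences from -0.26 to 0.53. Over all of them the difference was 0.14 (standard error 0.01, adjusted p = 1.5e-18), far under the fold threshold.

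*Irf3* (ENSMUSG00000003184, chromosome 7 from 44997648 to 45002848), the constitutively made sensor-activated factor, measured 703, 640.3 and 629 in undifferentiated cells and 1077, 1131 and 1129 at GCSF 0h. The groups do not overlap, and the rise was 0.76 (standard error 0.07, adjusted p = 2.14e-19). In IL3 it went from 459, 479 and 506 at 1h through 862, 896 and 816 at 3h to 1163, 1174 and 1171 at 8h, its highest mean in that cytokine. The step into 3h was called (0.68, standard error 0.07, adjusted p = 6.78e-16). *Irf3* then stayed above undifferentiated cells, by 0.61 in the middle window, 12h to 72h (standard error 0.05, adjusted p = 8.61e-22), and by 0.60 in the late window (standard error 0.05, adjusted p = 5.89e-21). Both calls ended under upper-quartile scaling, at 0.58 and 0.48, and the late one also without replicate 3, at 0.57. In GCSF *Irf3* moved from its start by no more than 0.51 at any time point and was not called at any.

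Between the cytokines *Irf3* was called at 1 of 25 shared time points, 1h (0.73, standard error 0.07, adjusted p = 2.66e-18), where 30.8% of all genes were called. Its level in the 2 conditions was nearest at 8h, where the difference was 0.03. At 168h *Irf3* measured 951, 920.4 and 971 in IL3 and 1141, 1153 and 1176 in GCSF, and the GCSF libraries lay above the IL3 libraries without passing the fold threshold (0.29, standard error 0.07, adjusted p = 0.000114). Exons of *Irf3* overlap those of *Bcl2l12* on the opposite strand over 88 bases, and whether counting used strand is not given in the sources used here.

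**Figure D2:**
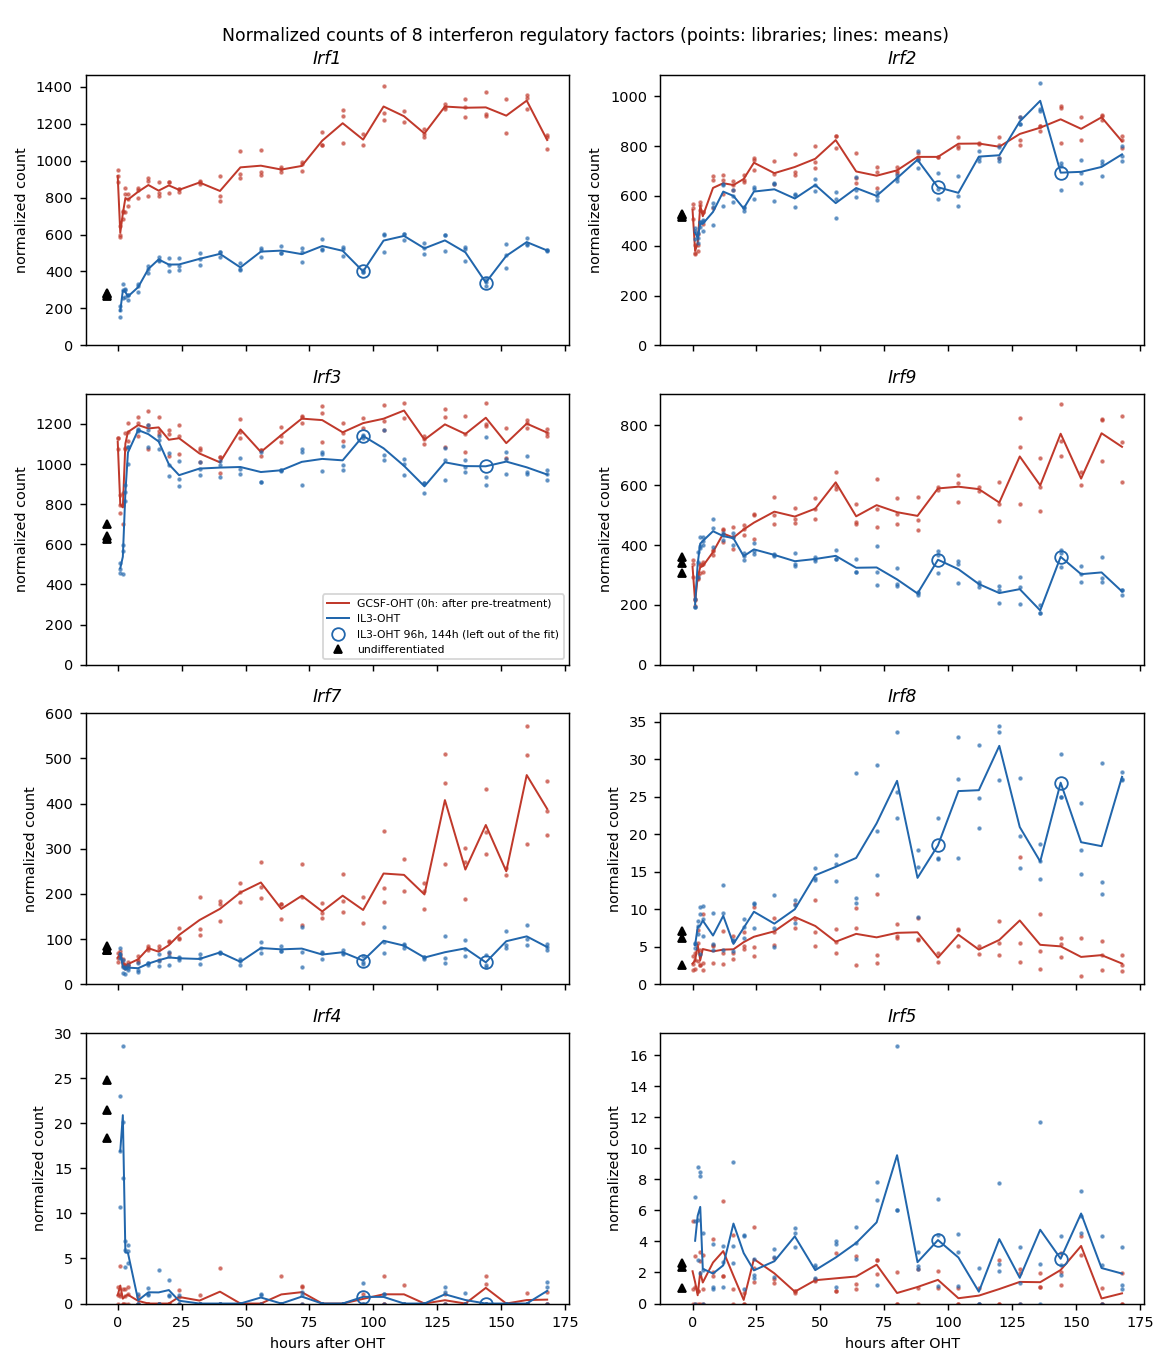
Normalized counts (y axis, linear, starting at 0) of the 8 members against hours after OHT (x axis), with libraries as points, means of each time point as lines and undifferentiated cells as triangles left of 0h. *Irf1* in GCSF lies above IL3 throughout, *Irf7* and *Irf9* end higher in GCSF, *Irf8* ends higher in IL3 and *Irf4* falls to the floor within 8h in IL3.

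*Irf7* (ENSMUSG00000025498, chromosome 7 from 141262706 to 141266481 on the minus strand), the interferon-induced amplifier of type I interferon production, showed the widest rise of the 5 well-measured members. It began at 75.9, 76.7 and 85.1 in undifferentiated cells and at 48.1, 58.4 and 69 at GCSF 0h. These groups do not overlap, but their difference of -0.44 did not pass (standard error 0.25, adjusted p = 0.12). In IL3 it fell within 2h (-0.81 from 1h, standard error 0.25, adjusted p = 0.00465) to 39, 35.7 and 22.8 at 3h, which is -1.29 from the start (standard error 0.25, adjusted p = 4.15e-06). Over 1h to 8h the fall was 0.97 (standard error 0.19, adjusted p = 8.9e-06), and *Irf7* and *Irf4* were the 2 members called in this window, where 12.4% of all genes were.

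In the late IL3 window *Irf7* differed from undifferentiated cells by -0.01 (95% interval -0.37 to 0.35). In GCSF it was not called against GCSF 0h in the first 8h, a window in which no member was called and 4.09% of all genes were (at an unadjusted or an adjusted p under 0.05 there were 3 members, *Irf1*, *Irf2* and *Irf3*, all lower and by 0.30 or less, and neither edgeR nor DESeq2 called any). From 24h onwards *Irf7* was called higher than GCSF 0h at each of 19 time points, where 8.39% of all gene and time point pairs were called higher and 15.4% either way. It reached 507, 573 and 310.0 at 160h and 332, 383 and 450.1 at 168h, and every one of these libraries lay above all undifferentiated, GCSF 0h and IL3 libraries, whose highest value was 131.1. At 160h the log2 fold change from GCSF 0h was 2.93 (standard error 0.25, adjusted p = 2.43e-20). Exons of *Irf7* overlap those of *Phrf1* on the opposite strand over 45 bases, a gene with a mean normalized count of 2958. Whether reads of *Phrf1* are among the counts of *Irf7* was not tested.

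The rise of *Irf7* was uneven in its last part. The 120h libraries lay between 166 and 224, followed by 267, 446 and 511 at 128h. The 136h libraries read 188, 302 and 272, the 144h libraries 289, 431 and 338, and the pair of 152h libraries 243 and 257. The step into 128h was the single upward step called (0.99, standard error 0.25, adjusted p = 0.00147), and the libraries at 128h and at 136h overlap. The 120h libraries carry another library prefix in their names than those of all other time points, and without them, an alternative chosen after seeing the data, no step of *Irf7* in GCSF was called, while its calls in the middle and late windows and over the time course stayed.

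*Irf9* (ENSMUSG00000002325, chromosome 14 from 55603571 to 55610030), the DNA-binding part of the complex that answers type I interferon, moved in opposite directions in the late windows of the 2 cytokines, in IL3 by less than the fold threshold. Its starting values were 340.2, 360.0 and 306 in undifferentiated cells and 336, 351 and 293 at GCSF 0h, which overlap. At 1h it had dropped to 192.1, 194 and 219.6 in IL3 and 195.9, 217 and 219 in GCSF, below all starting libraries, by 0.73 in IL3 (standard error 0.11, adjusted p = 4.51e-08). In GCSF the fall was 0.63 (standard error 0.11, adjusted p = 1.37e-06). In IL3 it then measured 488, 393 and 458 at 8h and 172.3, 173.2 and 199 at 136h, the lowest in the series, -0.88 from the start (standard error 0.11, adjusted p = 4.67e-12). The next step, into 152h, was called higher (0.73), and the libraries there read 276, 330 and 302. Only 1h and 136h of the 25 IL3 time points were called lower than the start.

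In GCSF *Irf9* climbed to 821, 818 and 682 at 160h (1.24 from GCSF 0h, standard error 0.11, adjusted p = 2.92e-19) and was called higher than its start at 18 time points from 32h onwards. At those time points 6.66% (72h) to 13.1% (160h) of all genes were called higher. Late in the course it lay 0.92 above its start in GCSF (standard error 0.08, adjusted p = 2.07e-19) and fell by 0.36 in IL3 (standard error 0.08, adjusted p = 4.74e-05), which is under the fold threshold. At 3h, 4h and 8h every GCSF library of *Irf9* lay below every IL3 library, and at 18 of the 25 shared time points every one lay above. How many of all genes separated in this way was not counted. From 56h onwards all 13 differences were called, at time points where 16.5% (56h) to 34.1% (136h) of all genes were called either way. *Irf9* shares exon bases with *Rnf31* on the same strand, and how shared reads were assigned between the 2 genes is not given in the sources used here.

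*Irf7* and *Irf9* were called together in the GCSF windows. In the middle window *Irf7* rose by 1.18 (standard error 0.18, adjusted p = 2.41e-08). *Irf9* rose by 0.59 there (standard error 0.08, adjusted p = 3.77e-10), with *Irf8* the third of 3 members called and 12% of all genes called. Without replicate 3 the calls of *Irf8* and *Irf9* were lost there, at 0.79 and 0.50, and upper-quartile scaling also ended that of *Irf9*, just under the threshold. In the late window *Irf7* rose by 2.13 (standard error 0.18, adjusted p = 5.43e-20), with *Irf2* and *Irf9* the other members called and 23.4% of all genes called. The median log2 fold change of the 8 members in the late window was 0.50, against -0.02 over all 17414 genes. The summed neutrophil markers were also higher at GCSF-OHT 168h, as given above, and their part in these results was not tested. Bulk counts do not tell more cells with a transcript from more transcript per cell.

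**Figure D3:**
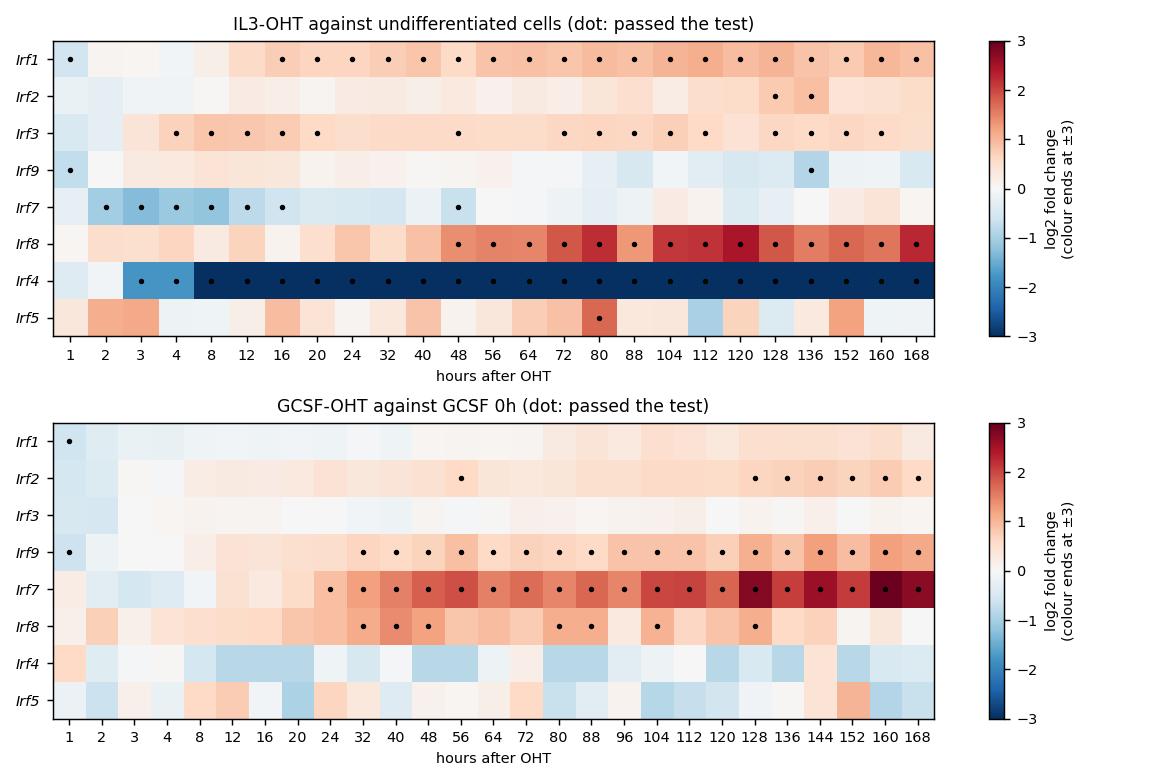
Log2 fold change of each member (rows) at each time point (columns) against undifferentiated cells in IL3 and against GCSF 0h in GCSF, with colours ending at 3 in either direction and a dot where the test was passed. In IL3 upward dots are most frequent for *Irf1*, *Irf3* and *Irf8*, in GCSF for *Irf7* and *Irf9*, with 7 each for *Irf2* and *Irf8*, and *Irf4* is called lower at 23 of 25 IL3 time points, all from 3h on.

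*Irf8* (ENSMUSG00000041515, chromosome 8 from 120736358 to 120756694), the monocyte and dendritic cell factor, rested on few reads throughout. Its normalized counts were 2.62, 6.14 and 7.09 in undifferentiated cells (2, 6 and 6 reads) and 3.7, 2.66 and 1.86 at GCSF 0h (4, 3 and 2 reads). These groups overlap, and the ratio of GCSF 0h to undifferentiated cells, from 9 and 14 reads, was 0.507 with a 95% counting interval of 0.193 to 1.26. In IL3 it rose, and the 80h libraries read 22.1, 25.7 and 33.6 and the 120h libraries 27.3, 34.5 and 33.7. Every library of both time points lay above all undifferentiated libraries.

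From 48h onwards *Irf8* was called higher than in undifferentiated cells at each of the 14 IL3 time points fitted. At those time points 10.2% (168h) to 13.2% (136h) of all genes were called higher. In the late IL3 window it lay 1.93 above the start (standard error 0.31, adjusted p = 3.12e-08), and from summed reads, 585 in 30 libraries against 14 in 3, the ratio was 4.21 (95% counting interval 2.49 to 7.75). In the middle window the rise was 0.97 (standard error 0.31, adjusted p = 0.00441), and without replicate 1 it was 0.63 and no longer called. The middle and late IL3 windows each had 4 members called, *Irf1*, *Irf3* and *Irf8* higher and *Irf4* lower, with 29.9% and 31.2% of all genes called.

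In GCSF *Irf8* peaked at 8.69, 7.45 and 10.7 at 40h and was at 3.94, 2.61 and 1.71 at 168h, values that overlap those of GCSF 0h. The middle window was called higher than GCSF 0h (0.91, standard error 0.31, adjusted p = 0.0112), a call lost with a pseudocount of 5, without replicate 2, without replicate 3 and in DESeq2, where the adjusted p was 0.051. From 9 reads at GCSF 0h and 234 in the 30 libraries of the window, the ratio was 2.35 (95% counting interval 1.21 to 5.2). Singly, 7 GCSF time points were called higher than GCSF 0h, namely 32h, 40h, 48h, 80h, 88h, 104h and 128h. Of all gene and time point pairs in GCSF 8.39% were called higher. The late window was not called (0.65, standard error 0.31, adjusted p = 0.0695).

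The cytokines differed most in *Irf8* at the end of the course. At 168h the IL3 libraries held 27.3, 27.4 and 28.3 against 3.94, 2.61 and 1.71 in GCSF, a ratio of 10.2 from 83 and 8 reads (95% counting interval 4.95 to 24.5). At 14 of 25 shared time points every GCSF library lay below every IL3 library. The test called 14 differences, all lower in GCSF, where 12.7% of all gene and time point pairs were called lower. The share of all genes with libraries so separated was not counted. In the late windows as a whole the ratio was 4.29 (95% counting interval 3.61 to 5.13).

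*Irf4* (ENSMUSG00000021356, chromosome 13 from 30749226 to 30766976), the close relative of *Irf8* that also partners PU.1, moved the other way and left the measurable range. *Irf4* had 18.3, 21.5 and 24.8 normalized counts in undifferentiated cells, from 14, 21 and 21 reads. In IL3 the 1h libraries read 23.1, 16.9 and 10.7 and the 2h libraries 14, 28.6 and 20.1. It then fell, to 4.1, 5.94 and 6.93 by 3h, and the 4h libraries read 5.8, 6.5 and 4.55. At 8h the libraries had 0, 1 and 0 reads. The groups at 1h and 2h overlap undifferentiated cells, and those at 3h and 4h lie wholly below.

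From summed reads, *Irf4* at 3h was 0.263 times its level in undifferentiated cells (18 against 56 reads, 95% counting interval 0.146 to 0.454) and at 2h 0.994 times (51 reads, 0.667 to 1.48). The limma steps into 3h and into 8h were called lower (adjusted p = 0.00423 and 4.03e-05). At IL3-OHT 32h, 40h and 48h all libraries had 0 reads, so that *Irf4* was at least 9.39-fold, 8.73-fold and 8.87-fold lower than in undifferentiated cells, against a floor of 3 reads per library. Over the late IL3 window 9 reads were found in 30 libraries, a ratio of 0.0162 (95% counting interval 0.00704 to 0.033).

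In GCSF *Irf4* was at the floor already before OHT. The 3 libraries of GCSF 0h had 1, 0 and 2 reads, a ratio of 0.0422 to undifferentiated cells with a 95% counting interval of 0.00845 to 0.13. After OHT in GCSF 45 reads were found in 78 libraries, and no time point differed from GCSF 0h by the test. With 79 of the 81 libraries in GCSF, GCSF 0h included, at or under the floor, no fold is given for *Irf4* within the GCSF course. Between the cytokines it was called lower in GCSF at 1h, 2h, 3h, 4h and 20h. In this comparison 12.7% of all gene and time point pairs were called lower. At 20h the IL3 libraries had at most 3 reads.

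*Irf5* (ENSMUSG00000029771, chromosome 6 from 29526625 to 29541871), the inflammatory factor of macrophages, was read too thinly for most comparisons. It had 2, 1 and 2 reads in undifferentiated cells and 1, 6 and 0 at GCSF 0h. Its highest mean was at IL3-OHT 80h, with 15, 4 and 5 reads, and 1 library there lay far above the other two. That was the single IL3 time point called against the start (1.71, standard error 0.66, adjusted p = 0.0216), and the IL3 time course as a whole was not (adjusted p = 0.0799). Over all libraries after OHT, *Irf5* was higher in IL3 than in GCSF from summed reads, by a ratio of 2.4 (95% counting interval 1.94 to 2.99). Of its exon bases 411 overlap *Tnpo3* on the opposite strand, a gene with a mean normalized count of 2220, and whether reads of *Tnpo3* are among these counts was not tested.

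In the comparison over all 25 shared time points, 5 of the 8 members were called and 24.5% of all genes were. *Irf1*, *Irf7* (1.20, standard error 0.05, adjusted p = 2.73e-45) and *Irf9* (0.62, standard error 0.02, adjusted p = 9.61e-52) were higher in GCSF, and *Irf8* and *Irf5* (-0.85, standard error 0.13, adjusted p = 8.13e-09) higher in IL3. With upper-quartile scaling the difference of *Irf9* was 0.58 and missed the fold threshold, and with a pseudocount of 5 that of *Irf5* was -0.37 and missed it as well. Each endpoint was also set against undifferentiated cells, which both of these comparisons share. At GCSF-OHT 168h *Irf1* (2.00), *Irf2* (0.65), *Irf3* (0.82), *Irf7* (2.27) and *Irf9* (1.11) were higher and *Irf4* lower, with 39.1% of all genes called. From GCSF 0h to 168h 3 members were called, *Irf2* (0.59), *Irf7* (2.71) and *Irf9* (1.15), with 24.8% of all genes called. The *Irf2* calls at GCSF-OHT 168h ended under upper-quartile scaling, at 0.51 from either start, and the one from GCSF 0h also without replicate 1, at 0.57. At IL3-OHT 168h *Irf1* (0.88) and *Irf8* (2.27) were higher and *Irf4* lower, with 25.4% of all genes called.

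**Figure D4:**
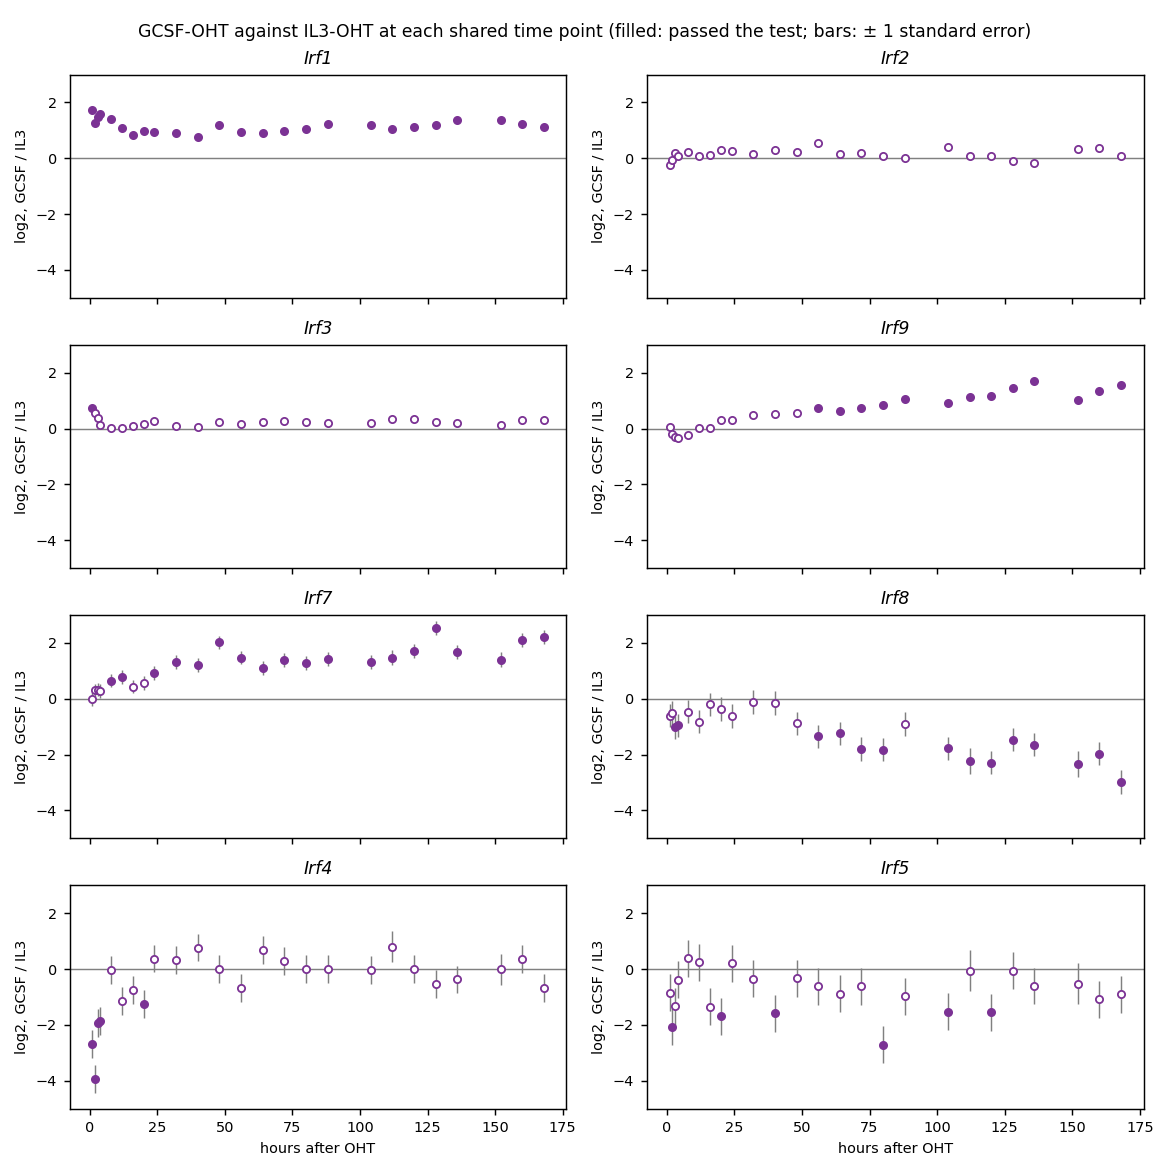
Log2 difference between GCSF-OHT and IL3-OHT (y axis, the same range in all panels) at each of the 25 shared time points (x axis, hours), with standard errors as bars and filled points where the test was passed. *Irf1* is filled and above 0 throughout, *Irf7* and *Irf9* move above 0 with time, *Irf8* moves below 0, and *Irf4* differs mainly at 1h to 4h.

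Whether the course from its own start differed between the cytokines was tested as an interaction. In the late window 4 members were called, with 26.7% of all genes called. *Irf7* (2.14, standard error 0.26, adjusted p = 3.23e-12) and *Irf9* (1.28, standard error 0.11, adjusted p = 1.05e-18) moved further up in GCSF. *Irf8* moved further up in IL3 (-1.28, standard error 0.44, adjusted p = 0.00979), a call lost without replicate 1 (-0.80, adjusted p = 0.289), in edgeR (adjusted p = 0.125) and in DESeq2. *Irf4* was called as well, with its GCSF start already at the floor, and edgeR did not call it (adjusted p = 1). In the early window *Irf4* and *Irf7* were called, with 10% of all genes called, and neither was called in edgeR or when replicate 1 or replicate 3 was left out.

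The tests over each whole course called 7 members in IL3, all but *Irf5*, with 69.7% of all genes called, and 5 in GCSF, with 47.7% of all genes called. The 5 were *Irf1*, *Irf2*, *Irf7*, *Irf8* and *Irf9*. The call on *Irf8* in GCSF (adjusted p = 0.0458) was lost in 7 of the alternatives run, and that on *Irf1*, whose largest move was the dip of 0.59 at 1h, in 2. The largest move of *Irf3* in GCSF was 0.51, which is under the threshold although its adjusted p was 6.15e-21.

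The time points of IL3-OHT that the study left out were set against their neighbours on both sides. The earlier neighbours, 88h and 136h, are times at which OHT was added again. The study proposes that the differences could be short-lived effects of that OHT, which was not tested here. *Irf7* was lower at 96h (-0.64, standard error 0.22, adjusted p = 0.00915) with 17.5% of all genes called, and the call was lost without replicate 1 and without replicate 3. At 144h *Irf7* read 38, 63.9 and 42.9 and *Irf9* 372, 326 and 384. Against the neighbours *Irf7* was lower there (-0.85, standard error 0.22, adjusted p = 0.000526) and *Irf9* higher (0.62, standard error 0.10, adjusted p = 1.43e-08), with 15.4% of all genes called, and both calls were lost without replicate 1. *Irf1* was lower at both time points by less than the fold threshold (-0.43 and -0.53).

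The order of the levels among the 56 groups was close to continuous. Of the 55 pairs of neighbours in that order, the difference was within the larger SD of the pair in 47 for *Irf1*, 50 for *Irf2*, 52 for *Irf3*, 51 for *Irf9*, 54 for *Irf7* and *Irf8*, 33 for *Irf4* and 55 for *Irf5*. The highest group was GCSF-OHT 160h for *Irf1*, *Irf7* and *Irf9*, IL3-OHT 136h for *Irf2*, GCSF-OHT 112h for *Irf3* (1267 ± 55.7, SD, n = 2), IL3-OHT 120h for *Irf8*, undifferentiated cells for *Irf4* and IL3-OHT 80h for *Irf5*.

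For the 6 members with a highest mean of at least 30, the genes with the most similar pattern were found by Pearson's r of log2 means over 54 groups, among 12297 genes. The groups are time points of the same 2 courses, so that r is a description. Nearest to *Irf1* were *Rcsd1* (0.98), *Trim11* (0.97) and *Ifnlr1* (0.97), nearest to *Irf2* was *Cds2* (0.90) and nearest to *Irf3* was *Cc2d1a* (0.91). *Isg15*, an interferon-stimulated ubiquitin-like modifier, was nearest to *Irf7* (0.96), followed by *Cxcr2* (0.95) and *C4b* (0.94). *Hdhd5* (0.93) and *Usp18* (0.91), an interferon-induced brake on receptor signalling, were nearest to *Irf9*, and *Coro2a* (0.91) and *Haao* (0.91) to *Irf8*.

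Around the IRFs, the 7 listed interferon genes were in the table, but none of them reached the filter of 5 normalized counts. Of 22 interferon-stimulated genes 21 were tested. With GCSF pre-treatment 8 of them were called higher and 1 lower (33.7% of all genes either way), in the early IL3 window 1 higher and 5 lower (12.4%), and in the late IL3 window 2 higher and 3 lower (31.2%). In GCSF they were called higher only, 9 in the middle and 11 in the late window (12% and 23.4% of all genes either way), apart from 1 called lower in the early window (4.09%). Of the 21 genes, 4 had 0 reads at GCSF 0h and could not be called lower from it, so that these counts lean upward by construction. The median log2 fold change of the list in the late GCSF window was 1.39, against -0.02 over all genes. It was 0.52 with the 4 genes that had 0 reads at GCSF 0h set to their bounds.

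Over the shared time points, where 24.5% of all genes were called, 15 of the 21 interferon-stimulated genes were higher in GCSF and 1, *Bst2*, was lower (-1.06, standard error 0.02, adjusted p = 2.44e-88). The antiviral genes *Ifit1* (2.94, standard error 0.11, adjusted p = 6.16e-49) and *Ifit2* (1.84, standard error 0.02, adjusted p = 8.02e-105) differed most among those named by the rule. *Ifit2* stood at 228 ± 46.8 (SD, n = 3) in undifferentiated cells and at 1136 ± 97.5 (SD, n = 3) after GCSF pre-treatment. Its GCSF-OHT 168h mean was 1210.1 ± 39.5 (SD, n = 3). *Isg15* had a low count at GCSF 0h, 12.9 ± 4.8 (SD, n = 3). Its mean at GCSF-OHT 168h was 89.1 ± 12.5 (SD, n = 3).

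Of the 11 genes of interferon receptors and JAK-STAT signalling, 2 were higher and 3 lower with GCSF pre-treatment (33.7% of all genes called). *Ifngr1*, a chain of the interferon gamma receptor, rose by 1.73 (standard error 0.05, adjusted p = 2.23e-59). *Socs1*, an inhibitor of cytokine signalling, fell by 3.71 (standard error 0.18, adjusted p = 3.28e-39) from 517 ± 22.7 to 38.7 ± 0.549 (SD, n = 3 each), and *Ifngr2*, the other chain of that receptor, fell by 1.15 (standard error 0.07, adjusted p = 1.8e-32). In the late GCSF window 5 were higher and 0 lower (23.4% of all genes called), among them *Ifngr2*, which rose by 1.97 from GCSF 0h (standard error 0.05, adjusted p = 2.18e-66) and differed by -0.04 between the cytokines over the shared time points. In the late IL3 window 2 were higher and 0 lower (31.2%). Over the shared time points *Socs1* was lower in GCSF than in IL3 (-3.45, standard error 0.04, adjusted p = 1.94e-108).

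Of 18 sensors, adaptors and kinases upstream of the IRFs, 6 were higher and 2 lower with GCSF pre-treatment (33.7% of all genes called), and 6 higher and 2 lower in GCSF over the shared time points (24.5%). *Ifih1*, a sensor of double-stranded RNA, was 1.38 higher in GCSF (standard error 0.04, adjusted p = 1.37e-60) and the adaptor *Myd88* 1.08 higher (standard error 0.01, adjusted p = 3.32e-106), whereas *Mavs*, the mitochondrial adaptor of RNA sensing, was lower (-0.95, standard error 0.02, adjusted p = 7.06e-74). *Ddx58*, another RNA sensor, rose late in both cytokines, by 1.61 in IL3 (standard error 0.07, adjusted p = 3.23e-41) and by 1.08 in GCSF (standard error 0.07, adjusted p = 5.45e-27).

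Among 9 partners and corepressors, 3 were higher and 2 lower with GCSF pre-treatment (33.7% of all genes called) and 4 higher and 1 lower in GCSF over the shared time points (24.5%). *Batf*, a partner of IRF4 and IRF8, rose by 1.41 with GCSF pre-treatment (standard error 0.12, adjusted p = 2.9e-21), and *Irf2bpl* fell by 1.99 (standard error 0.15, adjusted p = 5.11e-23). Of 11 listed target genes in myeloid cells 8 were tested, and 4 were higher in each of the late windows, with 0 lower in IL3 (31.2% of all genes called) and 1, *Ciita*, lower in GCSF (23.4%). *Cybb*, the phagocyte oxidase subunit, had at most 2 reads in undifferentiated cells. At 168h its normalized count was 162 ± 33.2 (SD, n = 3) in IL3, and in GCSF it was 1531 ± 340.2 (SD, n = 3). *Nos2*, the inducible nitric oxide synthase, fell from 897 ± 47.5 to 51.2 ± 8.86 (SD, n = 3 each) with GCSF pre-treatment and stood at 1679 ± 363 (SD, n = 3) at GCSF-OHT 168h. In the late IL3 window *Nos2* also rose, by 1.46 (standard error 0.18, adjusted p = 2.74e-12). Over the shared time points it was lower in GCSF than in IL3 (-0.91, standard error 0.05, adjusted p = 9.05e-36).

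**Figure D5:**
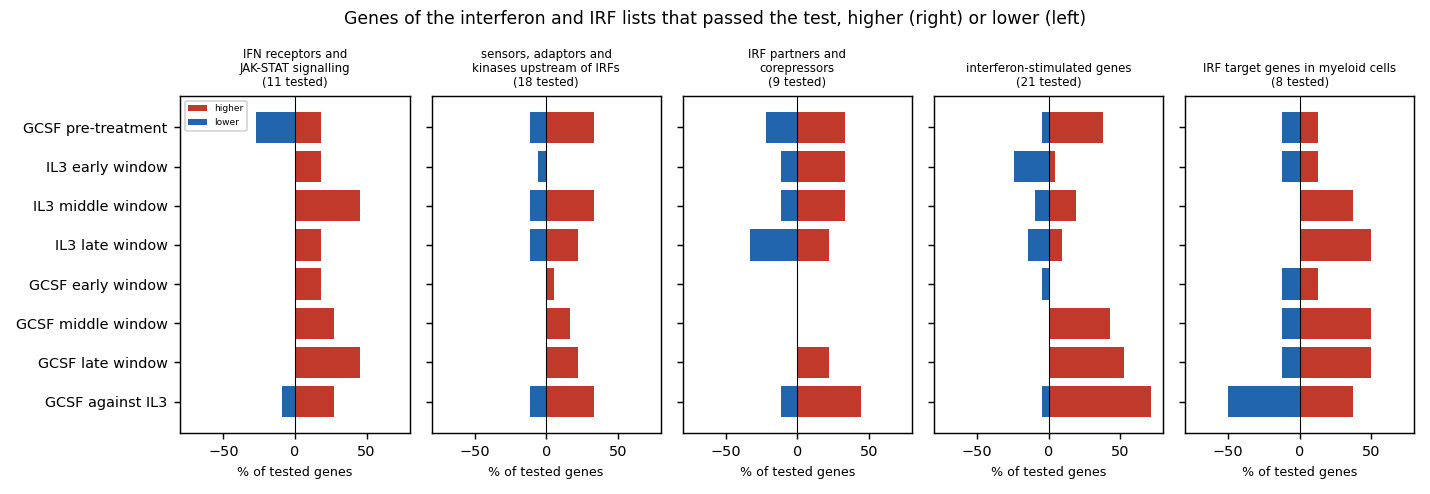
Share of the tested genes of 5 lists (panels) that passed the test, higher (right of 0) or lower (left of 0), in percent (x axis) for 8 comparisons (y axis). Of the 21 interferon-stimulated genes 15 are higher in GCSF than in IL3, whereas the target genes in myeloid cells split into 3 higher and 4 lower.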

How the data were processed

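PolyA RNA of 165 libraries was sequenced, and the authors quantified reads with Salmon on GRCm38 and scaled them with DESeq2 size factors. Tool versions, the step from transcripts to genes and any strand setting are not given in the sources used here. The deposited values are normalized counts per gene (signal, not whole numbers). All 2694265 nonzero values were whole multiples of the worth of 1 read in their library (100%, tolerance 1e-06), so reads per gene were recovered, and 0 columns of per-sample values were left unused. Libraries held 14600246 to 33147945 reads, and counting intervals and floors cover counting error only.

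The members and gene lists were chosen with earlier results of these data known. Differences were tested with limma 3.58.1 (R 4.3.3) (trended variance) on values transformed as log2(normalized count + 1), with 1 mean per condition and time point, over 159 libraries and 17414 genes with a value of at least 5 in at least 1 library. All fold changes are on this scale, which understates the change of low genes. Genes were called at a Benjamini-Hochberg adjusted p under 0.05, taken over all genes in each comparison, and an absolute log2 fold change over 0.58. Comparisons of IL3-OHT 96h and 144h with their neighbours used all 165 libraries and 17439 genes. Windows were 1h to 8h, 12h to 72h and 80h to 168h. The late window holds 96h and 144h in GCSF but not in IL3, also in the late interaction. All 8 members were named. From each list, the genes named are those with the largest called changes in each direction in the pre-treatment, late and cytokine comparisons, and *Isg15* was added after its values were seen. A gene that this rule names is not reported here. Ratios of summed reads carry exact binomial 95% intervals. The code was tested on simulated data. Alternatives were pseudocounts of 0.5 and 5, other filters, upper-quartile scaling, each replicate left out, a replicate block, only the groups compared, edgeR 4.0.16 and DESeq2 1.42.0 on recovered reads, IL3-OHT 96h and 144h included and, chosen after seeing the data, the 120h libraries left out.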

Additional observations from a re-analysis of the deposited data

Results flagged for a closer look

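The change from its own start differed between the cytokines by a test of that difference, the interaction in limma, for 4 members in the late window and 2 in the early window. Values are the change in GCSF minus the change in IL3 on the log2 scale. In the late window *Irf7* differed by 2.14 (from 2.13 in GCSF and -0.01 in IL3) and *Irf9* by 1.28 (from 0.92 and -0.36). *Irf8* differed by -1.28 (from 0.65 and 1.93), on few reads. *Irf4* differed by 3.72, which is no measure of size, since its start in GCSF was at the floor.

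In the early window *Irf4* differed by 1.57, with the same limit, and *Irf7* by 0.76 (from -0.21 in GCSF and -0.97 in IL3). No group had more than 3 libraries, so that single libraries standing apart were not tested for.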

How the results depend on the processing

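Over 136 values of the members and 14 settings, 1818 alternative values were computed. Of these, 1770 were called or not called as before, 43 lost a call and 5 gained one. Among values called here or in the alternative, 0 changed direction. The direction of values called in neither was not compared, and values over a whole course are sizes without direction. The number of members called in the early interaction, 2 as reported, was 1 with a pseudocount of 0.5, 1 with a mean of at least 10, which removes *Irf4* and *Irf5* from the test, 0 in edgeR, 1 in DESeq2 and 0 to 1 with a replicate left out. In the early IL3 window, 2 became 1 with a mean of at least 10 and 1 in DESeq2, where *Irf4* was lost (adjusted p = 0.162). In the late interaction, 4 became 2 in edgeR. With a replicate left out, the counts ran from 0 to 1 for 96h against its neighbours, from 1 to 2 for 144h and from 1 to 3 for the middle GCSF window. For consecutive steps they ran from 5 to 10 in IL3 and from 1 to 3 in GCSF, against 10 and 3 as reported. The GCSF-OHT time points with 2 libraries kept both when a replicate was left out.

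Upper-quartile scaling moved the median of all genes by -0.10 in the late IL3 window and -0.13 at the GCSF endpoint from undifferentiated cells. Replicate numbers did not pair the libraries: deviations of same-numbered libraries had a mean correlation of 3.08e-04 over 4137 pairs, and the highest was 0.154. With the replicate block, 1 call changed, that of *Irf8* over the GCSF time course (adjusted p = 0.054). Depth limits *Irf4*, *Irf5* and *Irf8*, whose few reads leave wide intervals. The cause of each change was not tested, except that fewer libraries or genes enter some settings.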
